A study of Mus musculus with 4 samples.

Results

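The Rn4.5s tandem array of mouse chromosome 6 was examined as the windows of 100 bp listed by the study on mm10 from chr6:47650001-47780000, a range chosen because earlier comparisons of these libraries had placed many differing windows there. Of the 1300 possible windows in this range 617 were listed, out of 1048575 listed windows in all. DNA methylation was profiled by MeDIP-seq, which enriches methylated fragments with an antibody to 5-methylcytosine. Unenriched DNA, the input, was sequenced for comparison. The cells were NKT cells, a T cell lineage specific for lipid antigens, sorted from thymus with CD1 tetramers. The series concerns how acetylation of the transcription factor PLZF affects their differentiation. The 4 groups, MeDIP and input of the genotypes WT and PLZFon, had 1 library each, all from C57BL/6 mice whose age and number the labels do not give. What the PLZFon allele is remains undescribed in the labels, and no treatment is named. The antibody label goes against the titles, naming the antibody for WT input and no antibody for the PLZFon MeDIP library. Groups were taken from the titles, and libraries of DNA hold no expression by which to check the cell type. Genotype and library cannot be told apart with 1 library per group, so no test of genotype was made, and each difference is one between libraries.

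Rn4.5s encodes 4.5SH RNA, a small nuclear RNA of mice and related rodents that RNA polymerase III transcribes and that resembles the B1 family of short interspersed repeats. Its genes stand in tandem, each within a longer repeated unit that is mostly spacer. In mammalian DNA, methylation falls mainly on CpG dinucleotides. Stretches rich in CpG are often free of it at active promoters and carry it where repeats are silenced.

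The gene table used here, of RefSeq on GRCm38.p6, the assembly of mm10, annotates 1 Rn4.5s gene of 174 bp at chr6:47654921-47655094. It also places 1 lncRNA gene across the left bound (Gm40371), 6 predicted protein-coding genes (Gm40369, Gm40367, Gm40365, Gm36327, Gm40364 and Gm40363) and 2 further lncRNA genes (Gm52861 and Gm52862) in the range. The nearest annotated neighbours were the lncRNA gene F830010H11Rik on the left and the Y RNA gene Rny3 on the right, neither with a listed window. The label of a tandem array was checked against sequence. RefSeq gives 9 promoter sequences of 300 bases (250 before to 50 after a gene start) within the range, and 4 of them are the same in every base. Printed here 5′ to 3′ with each CpG in capitals, 4 of the sequences mark the repeat itself and the kinds of level that the array holds: little MeDIP signal in the shared promoter, strong signal in Gm52862, and, in Gm40371, CpG-dense sequence with no listed window. The Gm52861 promoter shows how closely a copy in the other block matches the shared one.
Promoter shared by Gm40369, Gm40367, Gm36327 and Gm40364, chr6:47653742-47654041 for Gm40369, plus strand: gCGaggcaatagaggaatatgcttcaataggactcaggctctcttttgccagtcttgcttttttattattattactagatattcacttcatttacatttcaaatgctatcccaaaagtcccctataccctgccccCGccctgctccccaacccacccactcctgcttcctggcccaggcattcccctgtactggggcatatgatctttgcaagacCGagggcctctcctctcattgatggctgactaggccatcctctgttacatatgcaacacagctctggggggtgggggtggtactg
Gm52861, chr6:47738587-47738886, plus strand: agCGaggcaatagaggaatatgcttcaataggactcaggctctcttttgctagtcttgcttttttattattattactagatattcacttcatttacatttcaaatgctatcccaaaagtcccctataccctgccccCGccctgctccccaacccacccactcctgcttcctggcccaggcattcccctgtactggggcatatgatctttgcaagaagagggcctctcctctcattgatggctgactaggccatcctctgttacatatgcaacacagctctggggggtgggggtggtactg
Gm52862, chr6:47755016-47755315, plus strand: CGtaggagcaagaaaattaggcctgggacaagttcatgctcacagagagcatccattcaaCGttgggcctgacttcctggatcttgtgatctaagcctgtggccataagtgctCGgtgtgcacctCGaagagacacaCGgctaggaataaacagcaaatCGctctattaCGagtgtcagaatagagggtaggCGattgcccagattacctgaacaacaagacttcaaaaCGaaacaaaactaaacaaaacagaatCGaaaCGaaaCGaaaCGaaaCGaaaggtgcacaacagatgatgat
Gm40371, chr6:47651255-47651554, minus strand: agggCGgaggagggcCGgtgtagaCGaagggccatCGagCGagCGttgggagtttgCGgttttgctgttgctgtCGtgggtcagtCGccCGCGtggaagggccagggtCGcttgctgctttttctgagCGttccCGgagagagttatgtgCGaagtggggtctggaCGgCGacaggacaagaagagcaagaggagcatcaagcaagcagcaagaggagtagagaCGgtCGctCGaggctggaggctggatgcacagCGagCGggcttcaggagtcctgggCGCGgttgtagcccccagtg

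The shared promoter starts at 47653742, 47662342, 47675332 and 47679657, and these starts lie 8600, 12990 and 4325 bp apart. Taken as 2, 3 and 1 units, 25915 bp over 6 units, they give a unit of 4319 bp. The Gm52861 sequence, from the other side of a stretch with no listed window, differed from the shared one by 4 edits over 300 bases, which is 98.7% identity. Reads from sequence that is the same at several places cannot be assigned to 1 of them, so the level of a single copy is not measured separately.

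The shared promoter holds 3 CpGs and Gm52862 holds 14, while Gm40371 holds 24, a number reached or exceeded by 6563 of 32851 RefSeq promoters. What the study's CpG factor measures was read from such sequences. In 2531 of 2531 listed windows that lie inside a RefSeq promoter sequence, 11 of them in the array, the CpG factor equalled the number of CpGs that start in the window. It is therefore used here as a count of CpGs per 100 bp.

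The listed windows formed 2 blocks, 298 windows over 37.1 kb and 319 windows over 41.3 kb, with no listed window for 49.9 kb between them (47687101 to 47737000). The array was rich in CpG. Its windows had a mean CpG factor of 4.41 (median 3, highest 18) against 2.35 in the 1402 listed windows within 1 Mb on either side. A factor of 10 or more was found in 64 windows, 10.4% of the array, and in 0.171% of all listed windows.

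**Figure D1:**
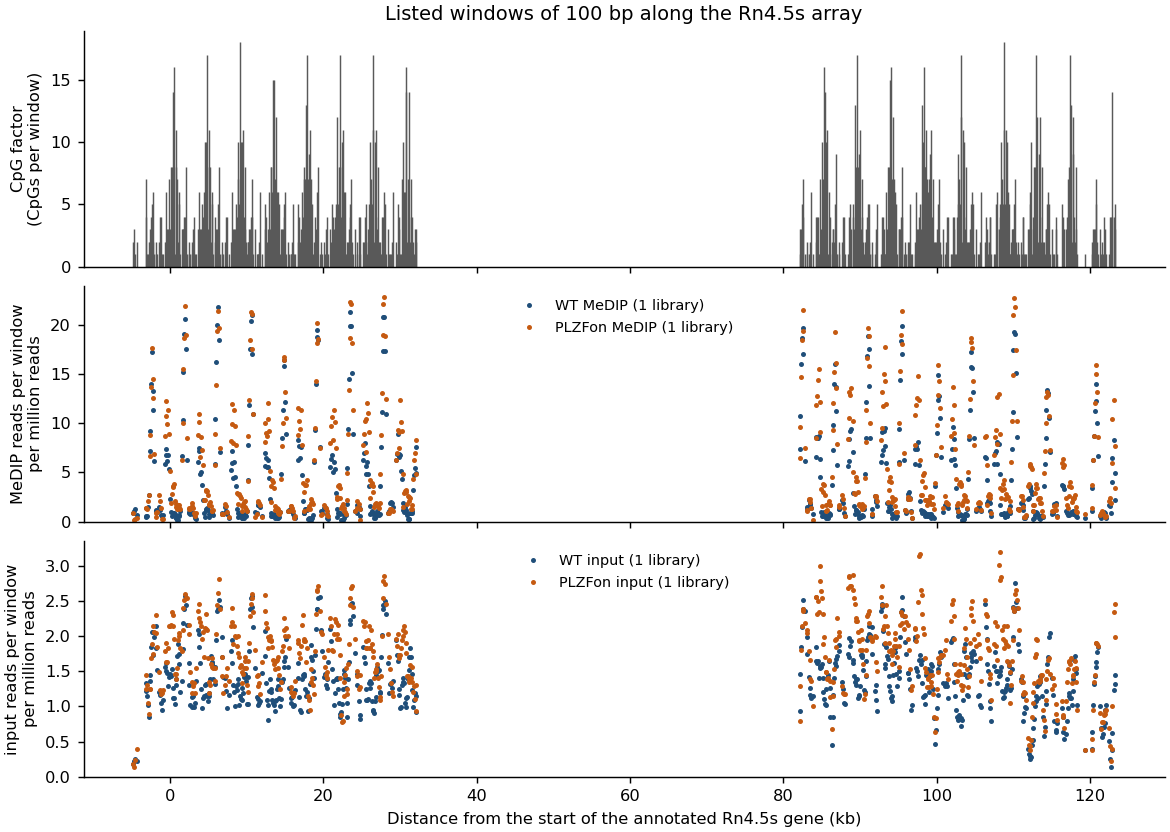
CpG factor (top), MeDIP reads (middle) and input reads (bottom, both scaled to library totals) in each listed window of 100 bp, against distance in kb from the annotated Rn4.5s gene; each point is 1 window of 1 library. Peaks of CpG factor and of MeDIP recur along both blocks, which are separated by 49.9 kb with no listed window.

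A spacing of about 4.3 kb recurred in the CpG factor and in the counts of the 4 libraries. Periodicity was measured as the correlation between windows a given distance apart, over pairs of listed windows. For the CpG factor the first peak stood at 43 windows, with an autocorrelation of 0.68 over 484 pairs, and its multiples refined the period to 4329 bp. Midway to that peak the autocorrelation went down to -0.32. The count tracks gave nearly the same spacing. The period was 4315 bp in WT MeDIP (autocorrelation 0.81) and 4309 bp in PLZFon MeDIP (0.78). Both had a lower peak at about 2.1 kb as well, with 0.35 in WT and 0.58 in PLZFon, where the CpG factor had -0.29. The period was 4334 bp in WT input (0.53) and 4319 bp in PLZFon input (0.49). All 5 tracks share the genome sequence, and the libraries share the placement of reads on it, so these values describe 1 array and are not independent. In the 1 Mb on the right the CpG factor had -0.03 at the same lag over 154 pairs, the MeDIP counts had 0.07 in WT and 0.10 in PLZFon, and the input counts had 0.19 and 0.18. In the 1 Mb on the left, over 32 pairs, these were -0.14 for the CpG factor, -0.14 and -0.27 for MeDIP and 0.30 and 0.31 for input. For the inputs the array's values thus stand out less from the flanks than for the other tracks. In the right-hand part of the range taken alone, the first peak to reach 80% of the highest one lay further out, at 19100 bp for the CpG factor, 23500 bp for WT MeDIP and 23400 bp for PLZFon MeDIP.

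**Figure D2:**
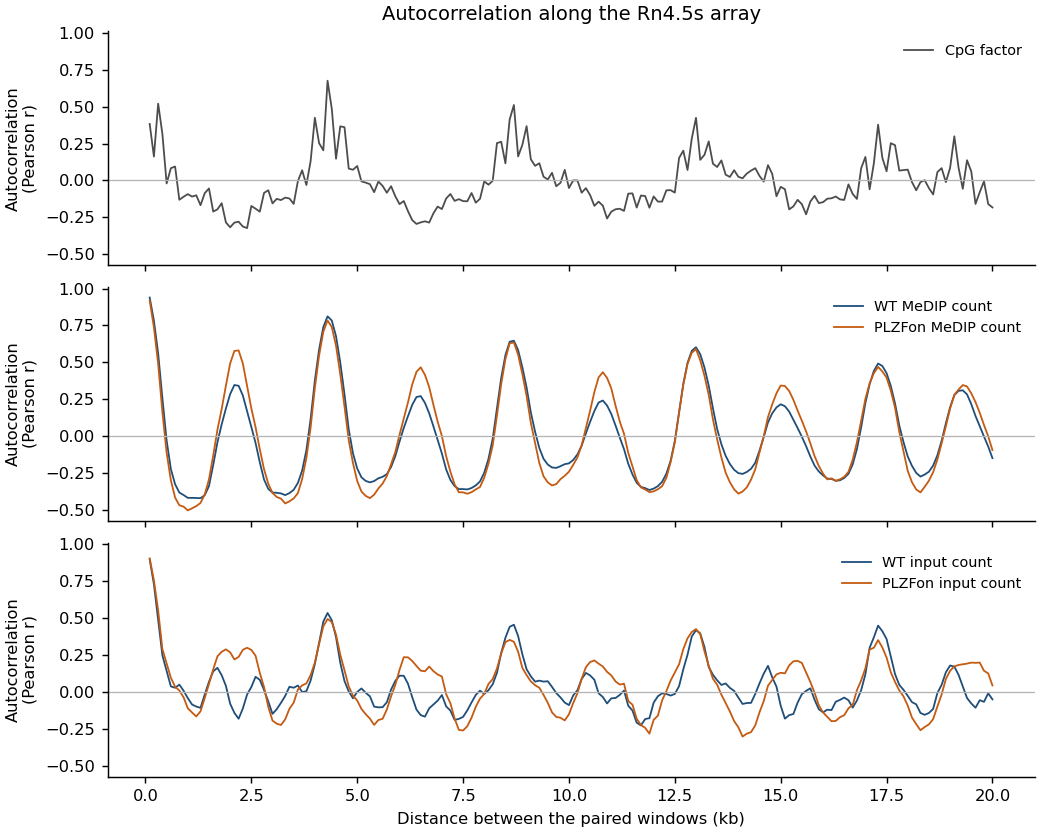
Autocorrelation (Pearson r) of CpG factor (top), MeDIP counts (middle) and input counts (bottom) against the distance between paired windows in kb; lines are the CpG factor in grey, WT in blue and PLZFon in orange. All tracks peak at 4.3 kb, at 0.68 for the CpG factor, 0.81 for WT MeDIP and 0.53 for WT input.

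The CpG factor profile of the 43 windows that start at Rn4.5s was then slid along the range to find its copies. Together with the Rn4.5s unit itself 18 copies were found, 9 in each block. The others matched it with a correlation of 0.63 to 0.98 (median 0.86, at least 0.6 required). Copies were found by CpG factor alone, and whether each holds an Rn4.5s gene was not checked by sequence. Of 16 spacings within the blocks 13 lay between 4200 and 4400 bp. The others were 4000, 5200 and 5600 bp, all in the second block. The first 2 of these come from where the rule placed copy 14, the one with the lowest correlation. The 9 windows just before it, 47752701 to 47753600, begin 4300 bp after copy 13 and belong to no copy by the rule, but they were CpG-dense too (factor 3 to 16) and correlated with the first windows of the Rn4.5s unit by 0.64. They held 9 to 32 WT and 23 to 66 PLZFon MeDIP reads. The start of copy 14 is therefore uncertain, and the values below are given without it where that matters. The copies held 575 of the 617 windows, and 14 copies had at least 30 listed windows. Copies of 1 sequence in 1 library are not replicates, and their spread below describes the array.

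The MeDIP libraries held 15141415 reads in WT and 10633623 in PLZFon, the inputs 60683037 and 50374918, and ratios between libraries are scaled to these totals. Intervals given in parentheses are 95% intervals of counting error only, and do not cover differences between animals or preparations.

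Input reads were far denser in the array than around it. WT input had 8 to 167 reads per window with a median of 83, and PLZFon input had 7 to 161 with a median of 87. In the flanks the medians were 12 and 10. The mean was 84.9 against 12.5 in WT, 6.80 times the flanks (95% interval 6.57 to 7.04), and 87.4 against 10.7 in PLZFon, 8.19 times (7.90 to 8.49). At least 60 input reads over both libraries were found in 603 of the 617 windows, and in 0.493% of all listed windows. Across the left bound itself there was no step. The last 3 windows outside had 10, 10 and 11 WT input reads, and the first 3 inside had 11, 14 and 15. The increase came after them, near the start of the first copy. The 14 windows listed in the 5 kb before the range had a mean of 9.07 WT and 10.6 PLZFon input reads, and the 31 in its first 5 kb had 78.8 and 72.3. On the right the last 3 windows inside had 75, 88 and 80 WT input reads and the first 3 listed outside had 14, 12 and 12.

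After scaling to library totals the PLZFon input exceeded the WT input over the array by a ratio of 1.24 (1.21 to 1.27), while the flanks stood at 1.03 (0.984 to 1.08). This difference concerns DNA that was not pulled down, and the MeDIP ratios below are printed beside it. In the 14 fuller copies the input ratio ran from 1.13 to 1.36 and its interval lay above 1 in 14 of 14. It was uneven within the unit, from 0.998 at 2200 to 2300 bp from the start of a copy to 1.70 at 4200 to 4300 bp, just before the next copy.

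MeDIP signal was not spread evenly over the unit. MeDIP over input, the depth-scaled MeDIP reads divided by the depth-scaled input reads, was 3.06 in WT (2.98 to 3.14) and 3.31 in PLZFon (3.23 to 3.40) over the whole array. Along the unit it ran from 0.293 to 8.50 in WT and from 0.563 to 8.34 in PLZFon. Values above and below 1 depend on the scaling. With libraries scaled to their reads in listed windows in place of all reads, the array as a whole had 0.689 in WT and 0.785 in PLZFon, and the CpG-dense stretch described next 0.131 and 0.360, so only the order of positions and genotypes is read from them. Stretches were set apart by this profile after it had been seen, and are given as a description. Their positions count from the window that holds the start of Rn4.5s, or from the matching window of the other copies.

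The CpG-dense stretch ran from the body of Rn4.5s to about 1 kb beyond its start (100 to 1000 bp) and held 98 of the 130 array windows with a CpG factor of 7 or more. Its mean CpG factor was 8.59 over 143 windows of 16 copies. It had little MeDIP signal in WT, with 0.582 times the input (0.523 to 0.649), and more in PLZFon, with 1.52 times (1.41 to 1.63). The highest mean CpG factor of the unit, 14.25, stood at 400 to 500 bp. WT MeDIP had 8 to 25 reads there over 16 copies (median 13.5), against 51 to 87 WT input reads (median 68.5). PLZFon MeDIP had 28 to 48 reads (median 40) at that position, against 73 to 112 PLZFon input reads (median 93). These are raw counts, and the PLZFon MeDIP library was the shallower one.

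Within the Rn4.5s gene itself 2 windows were listed. The window at 47654901 to 47655000, with a CpG factor of 3, held 35 MeDIP reads in WT and 55 in PLZFon, beside 89 and 108 input reads. The next one, with a factor of 8, held 15 and 20 MeDIP reads beside 87 and 109 input reads. Over both the MeDIP over input was 1.14 in WT and 1.64 in PLZFon. The gene thus sat at the edge of the stretch with low MeDIP signal.

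The strongest MeDIP signal lay between 1500 and 2200 bp, in spacer with a mean CpG factor of 3.60. MeDIP over input was 7.04 in WT (6.73 to 7.37) and 6.96 in PLZFon (6.63 to 7.31), and its peak of 8.50 and 8.34 stood at 1900 to 2000 bp. WT MeDIP had 198 to 330 reads per window there over 15 copies (median 294), and PLZFon MeDIP had 137 to 242 (median 224). The window with the most input reads of the array (47765101 to 47765200, CpG factor 7) belonged to this position, with 288 MeDIP reads in WT and 232 in PLZFon beside 167 and 131 input reads. The Gm52862 promoter printed above covers the peak of strong signal in copy 14, at 1500 bp from the uncertain start of that copy. Its 4 windows had 187, 226, 193 and 159 WT MeDIP reads and 137, 169, 152 and 123 PLZFon MeDIP reads, which is 5.90 to 10.6 times the input in WT.

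A further stretch, with signal strong beside most of the array, preceded the next copy, at 3500 to 4200 bp, with a mean CpG factor of 3.05. MeDIP over input was 4.36 in WT (4.11 to 4.63) and 4.87 in PLZFon (4.60 to 5.16), beside 4.44 and 4.22 over all listed windows. Between both lay a stretch poor in CpG and in MeDIP signal, at 2400 to 3300 bp, with a mean factor of 2.16 and MeDIP over input of 1.03 in WT (0.928 to 1.13) and 0.969 in PLZFon (0.869 to 1.08). The shared promoter printed above fell at its end. For Gm36327 its 3 windows held 12, 5 and 4 WT MeDIP reads and 11, 7 and 6 PLZFon MeDIP reads, against 77, 84 and 99 WT input reads. The low counts listed at the places of this promoter were not alike. Reads of identical sequence cannot be assigned to 1 place, so no difference between copies is read from them. For Gm40369 the 3 windows held 10, 9 and 10 WT MeDIP reads against 64, 58 and 66 WT input reads, and for Gm40364 the 2 listed windows held 19 and 8 against 53 and 50. MeDIP over input in WT thus ran from 0.162 to 1.44 over windows that overlap this promoter. These windows lie at different positions in it, and the first of each copy also holds sequence before it. The range is therefore not one between copies alone.

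**Figure D3:**
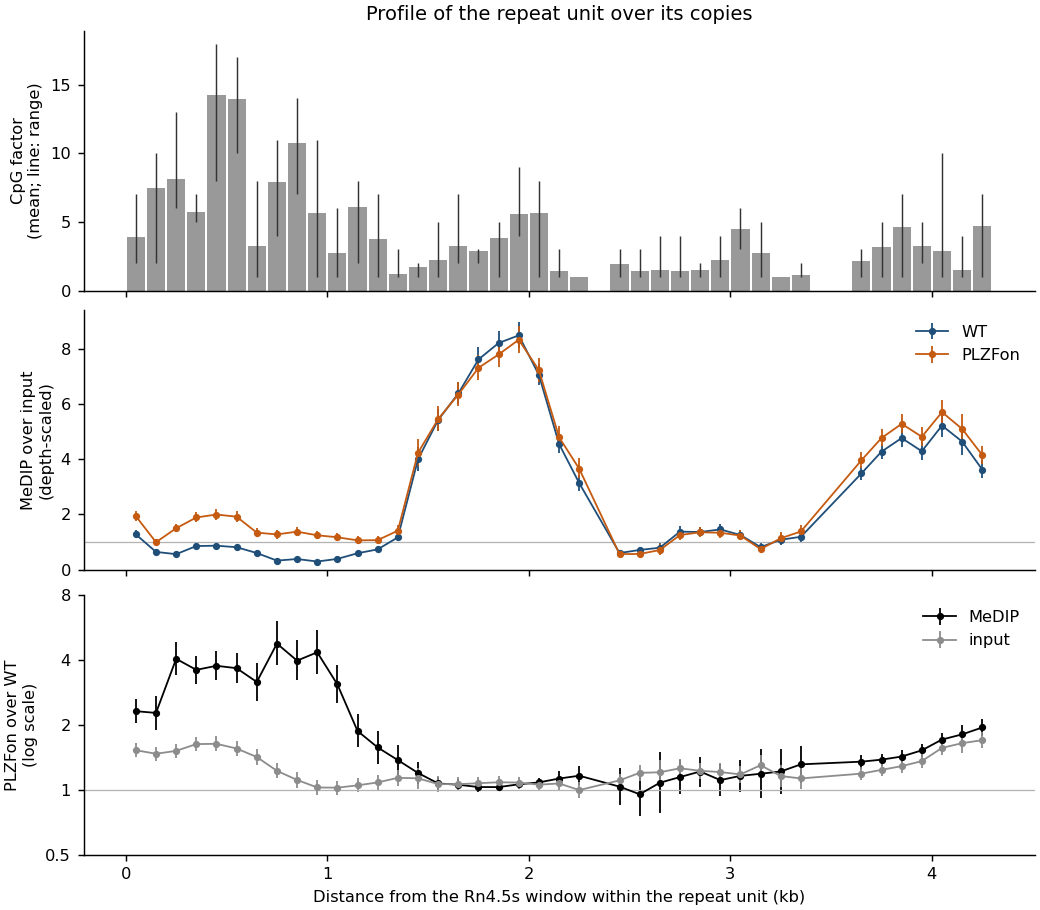
Profile of the repeat unit by distance from the Rn4.5s window in kb: CpG factor (top, mean and range over copies), MeDIP over input in WT and PLZFon (middle) and PLZFon over WT for MeDIP and input (bottom, log scale), with 95% intervals of counting error. WT MeDIP over input is lowest over the CpG-dense first kb (0.293 at 0.9 kb) and highest near 1.9 kb (8.50).

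In the leftmost copy, which began at 47650601, the CpG-dense stretch was missing from the table. None of its first 1.1 kb was listed, although the Gm40371 promoter printed above lies there with 24 CpGs. The listed windows of the table had at least 10 MeDIP reads over both libraries, and the input of windows that are not listed was not analysed here.

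CpG content and MeDIP signal were related differently in the array and in the rest of the table. Over all listed windows MeDIP over input was higher in CpG-rich windows, with 7.36 at a factor of 7 or more against 3.90 at 1 to 2 in WT, a quotient of 1.89 (1.87 to 1.90), and 6.72 against 3.76 in PLZFon, a quotient of 1.79 (1.77 to 1.81). In the array the quotient of these classes was below 1. MeDIP over input in WT was 1.69 against 2.45, a quotient of 0.690 (0.635 to 0.751, 130 and 229 windows). In PLZFon it was 2.36 against 2.70, a quotient of 0.874 (0.807 to 0.946). The median over single windows gave 1.09 in PLZFon, above 1, so the order there depends on how windows are combined. MeDIP over input in the array did not fall steadily with the factor. It was 2.18 in WT and 2.45 in PLZFon at a factor of 1, and highest at 3, with 4.51 in both. At 7 to 9 it was 2.45 and 2.92. The array's most CpG-rich windows, with a factor of 10 or more, had 0.727 in WT and 1.74 in PLZFon. The quotients below 1 thus rest on these windows, since at 7 to 9 the values were no lower than at 1 to 2. Windows with a factor of 10 or more were 64 of the array's 130 at 7 or more, against 1798 of 17157 over all listed windows.

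At the same CpG factor, MeDIP signal differed between the CpG-dense stretch and the rest of the array. The stretch had been bounded on this MeDIP profile, and neighbouring windows share reads. The difference is therefore a description, and no effect of position apart from CpG content is read from it. In the CpG-dense stretch WT MeDIP over input was 0.579 in windows with a factor of 1 to 3 and 0.602 at a factor of 10 or more. In the rest of the array it was 3.16 at a factor of 1 to 3, 4.64 at 4 to 6, 4.46 at 7 to 9 and 2.11 at 10 or more. The last value rests on 6 windows, 4 of which lie in the CpG-dense windows before copy 14. PLZFon had 1.30 and 1.60 in the CpG-dense stretch at those factors, and 3.35, 4.59, 4.93 and 3.13 in the rest.

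Listing weighs on these comparisons. A window with the median input of the table, 20 reads over both libraries, must reach a MeDIP over input of about 2.15 to hold 10 MeDIP reads, whereas an array window with the median of 169 is listed from about 0.255. Windows outside the array that also had at least 60 input reads are the closer comparison, and there were 4563 of them. Their quotient of factor 7 or more over 1 to 2 was 1.56 in WT (1.46 to 1.67) and 1.76 in PLZFon (1.64 to 1.89). At a factor of 10 or more, in 36 windows, they had 1.46 in WT and 2.17 in PLZFon, also below the 3.08 and 3.32 of their windows with 7 to 9. Their windows with a factor of 1 to 2 had 1.60 in WT and 1.65 in PLZFon. The lower value at the highest factors was thus not confined to the array.

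**Figure D4:**
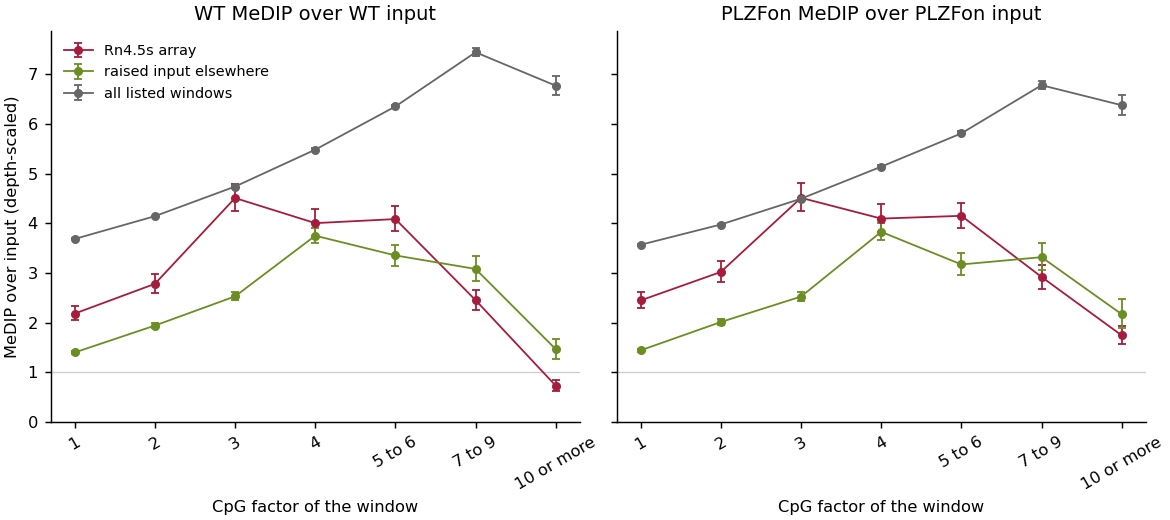
Depth-scaled MeDIP over input (vertical axis) by CpG factor of the window (horizontal axis) in WT (left) and PLZFon (right), for the array, windows of raised input elsewhere and all listed windows, with 95% intervals of counting error. In the array the value falls from 4.08 in WT and 4.15 in PLZFon at a factor of 5 to 6 to 2.45 and 2.92 at 7 to 9. At 10 or more it is 0.727 in WT and 1.74 in PLZFon. All listed windows rise with the factor up to 7.44 and 6.78 at 7 to 9, and have 6.77 and 6.38 at 10 or more.

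The last comparison set PLZFon beside WT. The range had been chosen with this MeDIP contrast in view, so its size is a description and supports nothing. Over the array the MeDIP ratio was 1.34 (1.31 to 1.38), and divided by the input ratio it was 1.08 (1.04 to 1.12). Over the flanks the same quotient was 0.926 (0.869 to 0.986). In 8 windows with at most 40 input reads the array quotient was 0.977 (0.509 to 1.87).

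The ratio was highest in the CpG-dense stretch. There the MeDIP ratio was 3.63 (3.22 to 4.09), the input ratio 1.39 (1.32 to 1.46) and their quotient 2.61 (2.30 to 2.97). The raised ratio was not confined to it. At 1000 to 1500 bp, with a mean CpG factor of 3.27, the MeDIP ratio was 1.56 (1.36 to 1.79). The quotient there was 1.45 (1.24 to 1.69), and without copy 14 these were 1.78 and 1.66. At 1000 to 1100 bp, with a mean factor of 2.73, the MeDIP ratio was 3.09 (2.53 to 3.78) beside an input ratio of 1.02. In the stretch of strongest signal the MeDIP ratio was 1.06 (1.02 to 1.10) and the quotient 0.988 (0.925 to 1.06). In the stretch poor in CpG, where WT MeDIP signal was also low, the ratio was 1.13 (0.989 to 1.29) and the quotient 0.945 (0.818 to 1.09). The stretch before the next copy had a MeDIP ratio of 1.48 (1.40 to 1.57) beside an input ratio of 1.33 (1.25 to 1.41), a quotient of 1.12 (1.03 to 1.21). Input and MeDIP ratios did not run in parallel along the unit. At 900 to 1000 bp the input ratio was 1.03 (0.949 to 1.11) and the MeDIP ratio 4.36 (3.47 to 5.50), the highest quotient of the unit. At 2200 to 2300 bp the input ratio was 0.998 and the MeDIP ratio 1.16, and at 1900 to 2000 bp they were 1.08 and 1.06. Windows of raised input elsewhere with a factor of 10 or more had a MeDIP ratio of 1.66 (1.41 to 1.95) beside an input ratio of 1.12 (1.02 to 1.25), against 3.42 (2.90 to 4.03) and 1.43 (1.32 to 1.54) in the array at those factors.

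Values by copy were close to each other. Reads of sequence that copies share cannot be assigned to 1 of them, so this likeness is not read as a result. In the CpG-dense stretch of 16 copies the mean WT MeDIP count ran from 7.56 to 15.3 reads per window. The mean PLZFon MeDIP count ran from 22.1 to 32.0. Single windows had 2 to 25 WT and 12 to 48 PLZFon MeDIP reads. The stretch was set apart after its profile had been seen, in a range chosen on this contrast. How far apart these counts lie is thus a description and supports nothing. The scaled ratio ran from 2.65 to 5.76. MeDIP over input was 0.420 to 0.758 in WT and 1.28 to 1.94 in PLZFon. Without copy 14 the stretch as a whole had 0.594 in WT and 1.52 in PLZFon, and a MeDIP ratio of 3.63 (3.21 to 4.10). The 9 windows before copy 14 had 0.791 and 1.69, and a ratio of 3.42 (2.28 to 5.12). In the stretch of strongest signal the ranges over 17 copies overlapped, 5.21 to 7.92 in WT and 5.65 to 8.36 in PLZFon, and the MeDIP ratio ran from 0.958 to 1.21. The predicted protein-coding genes laid over the array take in different stretches of the unit. Their MeDIP ratio ran from 1.18 in Gm40363, which spans the unlisted stretch, to 1.92 in Gm40364. The input ratio was 1.13 and 1.42 in these, and the mean CpG factor 3.83 and 5.80. Over whole copies with at least 30 windows the MeDIP ratio was 1.28 to 1.44. Divided by the input ratio it was 0.969 to 1.16. This quotient was above 1 in 13 of 14 copies, and its interval lay above 1 in 0 of 14. A copy holds fewer reads than the array, where the interval was 1.04 to 1.12.

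**Figure D5:**
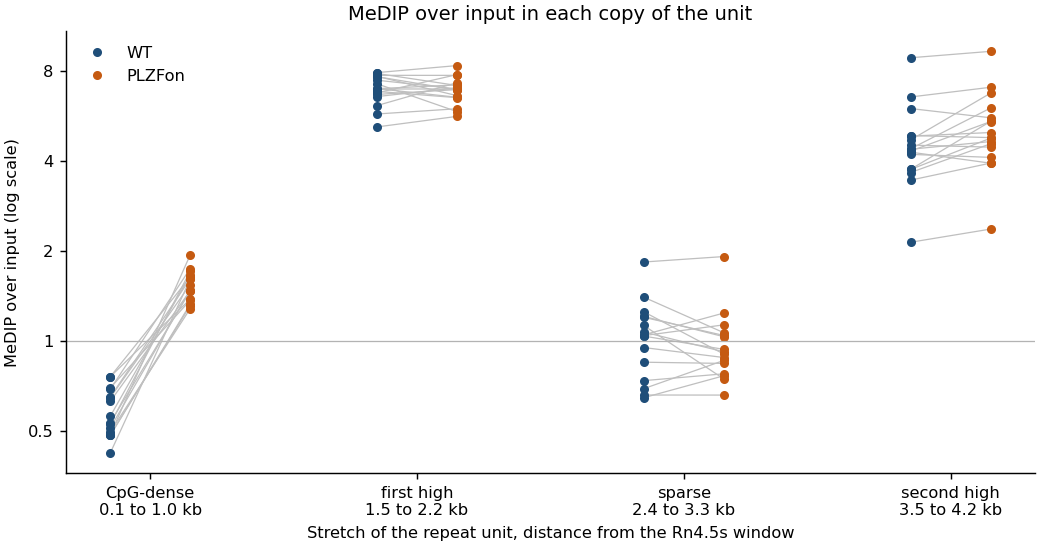
MeDIP over input (log scale) in 4 stretches of the repeat unit, each point 1 copy with at least 4 listed windows in that stretch, with WT in blue and PLZFon in orange joined by copy. In the CpG-dense stretch WT points run from 0.420 to 0.758 and PLZFon points from 1.28 to 1.94. In the other stretches shown the points overlap. The range was chosen on this contrast, and copies are not replicates.

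Single windows were called by a rule of size, a ratio of 2 or more whose exact interval excluded equality, among windows with 20 or more reads summed over the pair. By this rule 180 of 567 array windows were higher in PLZFon MeDIP, beside 1.13% of the 409114 listed windows with as many reads, and 1 was lower, beside 2.17%. Because the range was chosen on this contrast, nothing is read from these shares. Of the 180 windows 126 lay in the CpG-dense stretch, and their mean CpG factor was 7.58 over all 180. All 18 copies, which are not replicates, held some of them, and 14 lay outside the copies. The 1 lower window lay outside the copies. A minimum of 50 reads left 61. In the inputs 5 of 616 windows were higher in PLZFon, 0.812% beside 1.92% of 554402 listed windows, and 0 were lower, beside 1.43%. At a ratio of at least 1.5 the inputs gave 145 of 616 higher, beside 2.02% of all listed windows tested, and 1 lower, beside 1.45%. The median input over both libraries was 169 reads in the array and 20 over all listed windows. With more reads a ratio of 1.5 excludes equality more easily, so these shares are not alike and nothing is read from them.

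The 3 highest MeDIP ratios stood at 700 to 900 bp from the start of their copies. The window at 47685901 to 47686000, with a CpG factor of 7, had 28 PLZFon and 4 WT MeDIP reads, a ratio of 9.97 (3.49 to 39.1), beside 72 and 84 input reads. The window at 47758301 to 47758400, with a factor of 11, had 21 and 3 MeDIP reads, also 9.97 (2.98 to 52.2), beside 65 and 66 input reads. The window at 47686001 to 47686100, with a factor of 14, had 27 and 4 MeDIP reads, 9.61 (3.35 to 37.8), beside 68 and 92 input reads. It adjoins the first and shares reads with it. All 3 rest on 3 or 4 WT reads, so their size is loosely bound.

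The lowest ratios were found outside the CpG-dense stretch. The window at 47650301 to 47650400, before the first copy, had 3 PLZFon and 19 WT MeDIP reads, a ratio of 0.225 (0.0426 to 0.764), beside 12 and 15 input reads. The windows at 47653001 to 47653100 and at 47666001 to 47666100, both 2400 bp into their copies, had ratios of 0.419 (0.121 to 1.18) and 0.475 (0.135 to 1.37), with intervals that include equality. The highest CpG factor was 18, and the first window that reached it, at 47664001 to 47664100, had 28 PLZFon and 12 WT MeDIP reads beside 79 and 70 input reads, a ratio of 3.32 (1.64 to 7.17). The window with the fewest input reads, at 47777601 to 47777700 outside the copies, had 20 and 14 MeDIP reads beside 11 and 8 input reads, a ratio of 2.03 (0.977 to 4.35).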

How the data were processed

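MeDIP and input libraries of WT and PLZFon thymic NKT cells, 1 each, were taken from 1 deposited table of 100 bp windows on mm10. Per the file headers the reads were sorted and filtered to unique ones, and the submitters' processing notes list BWA and edgeR. Versions and the placement of reads from repeats are not given in the sources used here. Its count columns are the authors' raw reads per window, its RPKM columns were scaled by the authors and served only to recover library totals, and its CpG factor is a deposited score. The other 12 columns of results and means were not used. The table lists windows with at least 10 MeDIP reads on chromosomes 1 to 7, ending at 139972600 of chromosome 7.

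Ratios were scaled to library totals. Exact Clopper-Pearson 95% intervals were used, on sums divided by 4 because neighbouring windows share reads, undivided for single windows and positions, and log-normal intervals for ratios of ratios. Periods used lags up to 300 windows with at least 30 pairs. The period, ratio and call steps were tested on simulated data. Python 3.11.15, scipy 1.17.1 and edgeR 4.0.16 (TMM factors only) were used. Named were the 3 highest and 3 lowest MeDIP ratios among windows with at least 20 MeDIP reads, the extremes of input and CpG factor, the bounds, the extreme positions of the unit, and genes in or next to the range. The stretches and copies of the unit, promoter windows, pseudogenes, Ezh2 and Pdia4 were added after values were seen. Members, lists and tests were chosen with earlier results of these data known. Alternatives covered scaling, read minimum, CpG classes, period method and parts of the range.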

Additional observations from a re-analysis of the deposited data

How the results depend on the processing

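Of 124 alternative values 80 kept their direction and size. With scaling by reads in listed windows, TMM factors and flank reads, in this order, the array's MeDIP ratio was 1.39, 1.39 and 1.41 and its quotient by the input ratio 1.14, 1.13 and 1.17. MeDIP over input was 0.689, 0.760 and 0.728 in WT and 0.785, 0.861 and 0.853 in PLZFon for the array, and 0.131, 0.145 and 0.139 in WT and 0.360, 0.395 and 0.392 in PLZFon for the CpG-dense stretch, whose alternatives were added after seeing the data. These scalings set the MeDIP over input of the other windows to about 1 by construction. Flank scaling gave an input ratio of 1.20 and 3 windows higher in PLZFon input. In the 8 windows with at most 40 input reads the MeDIP ratio was 1.30, the input ratio 1.34, their quotient 0.977, and MeDIP over input 7.40 in WT and 7.22 in PLZFon. No window there had a CpG factor of 7 or more, so that contrast could not be computed. With at least 20 MeDIP reads, MeDIP over input was 3.23 and 3.47.

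The quotient of CpG-rich over CpG-poor windows was 0.895 in WT and 0.961 in PLZFon for factors of 5 or more over 1 to 3, and 0.460 and 1.09 as medians of windows. In the right part of the range alone the period was 19100 bp for the CpG factor, 23500 bp for WT MeDIP and 23400 bp for PLZFon MeDIP, and epoch folding gave 2170 bp for PLZFon MeDIP. The cause was not tested. Windows higher in PLZFon MeDIP numbered 61 at a minimum of 50 reads, and windows lower 2 at a minimum of 10 and 0 at 50. A ratio of 1.5 gave 145 windows higher and 1 lower in PLZFon input, beside 2.02% and 1.45% of all listed windows tested, which held far fewer input reads. Input over the surroundings was 7.50 in WT and 9.21 in PLZFon against all of chromosome 6, and in PLZFon 8.70 by medians and 7.87 matched on CpG factor. No paired analysis was possible because each group had 1 library. Depth limits single windows, since either MeDIP library held as few as 2 reads in some.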

Other observations

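RefSeq places pseudogenes of Rn4.5s on chromosome 1. Rn4.5s-ps1 (chr1:107004795-107005091) had 3 listed windows, with means of 13.0 and 10.3 MeDIP reads in WT and PLZFon and of 8.67 and 6.33 input reads, so its input lay near the level of other listed windows and far below the array. Its MeDIP over input was 6.01 in WT and 7.73 in PLZFon. Rn4.5s-ps4 had 0 listed windows.

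The protein-coding genes on either side of the array had ordinary input. Ezh2, which encodes the methyltransferase of Polycomb repressive complex 2, had 22 listed windows with means of 7.77 WT and 8.73 PLZFon input reads. Its MeDIP over input stood at 4.29 for WT (2.83 to 6.84) and 3.11 for PLZFon (1.95 to 5.04). Pdia4, which encodes a protein disulfide isomerase, had 26 with 10.3 and 9.81 input reads. Its MeDIP over input was 4.44 (3.14 to 6.26) and 3.66 (2.45 to 5.34). For both genes the intervals of WT and PLZFon overlap.

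A repeated run joins both blocks of the array. The upstream promoter of Gm40369 and the promoter of Gm52862 share a run of 38 bases, whose places lie 102614 bp apart, shown 5′ to 3′ with CpGs in capitals: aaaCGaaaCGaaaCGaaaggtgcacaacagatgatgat. Windows over both had strong MeDIP signal, with 7.67 times the input in WT at 47652601 to 47652700 and 7.97 at 47755201 to 47755300.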
